A study of Mus musculus with 9 samples.

Results

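The genes described here are 5 members of the Cmtm family, Cmtm8, Cmtm3, Cmtm4, Cmtm6 and Cmtm7, taken by their mouse symbols from a table of 56748 gene identifiers. They were measured in endothelial cells sorted from mouse lung, as cells negative for DAPI and CD45 and positive for CD31. There were 3 libraries from each of 3 genotypes, WT, DNMAML and Notch1f/f, all from C57BL/6 mice 6 weeks old. The name DNMAML commonly stands for a truncated Mastermind-like protein that blocks transcription downstream of all Notch receptors, and f/f marks a pair of Notch1 alleles that a recombinase can delete. The recombinase, its driver, the sex of the mice and whether a library came from a single mouse were not stated in the labels, so the spread between libraries may be technical. The family was chosen with the difference of Cmtm8 between these genotypes already known. The values of all 5 genes in the 3 comparisons are therefore a description and support nothing on their own.

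Cmtm proteins (CKLF-like MARVEL transmembrane domain proteins) span the membrane several times and are related to the chemokine CKLF. They are known mainly for steering other membrane proteins between the cell surface, endosomes and lysosomes. In human cells CMTM6 and CMTM4 keep PD-L1, the ligand of an immune checkpoint receptor, at the surface. CMTM3 and CMTM4 act on the turnover of VE-cadherin, the main adhesion molecule between endothelial cells, in human endothelium. CMTM7 and CMTM8 act on the uptake of the EGF receptor in human cells, and CMTM8 causes cell death when overproduced there.

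The 5 genes lie in a pair of clusters, in the coordinates of the deposited table (GRCm39). Cmtm8 (ENSMUSG00000041012) lies on the minus strand of chromosome 9, 114618413 to 114673224. Cmtm7 (114585904 to 114610924, minus strand) is next to it at a gap of 7488 bases, and Cmtm6 (114560184 to 114578412, plus strand) lies 7491 bases beyond Cmtm7. Cmtm3 (105066042 to 105074304, plus strand) and Cmtm4 (105074823 to 105122439, minus strand) lie on chromosome 8, tail to tail and 518 bases apart. Cdh5, which encodes VE-cadherin, ends 195 kb before Cmtm3 on the same chromosome. The exons of Cmtm8, Cmtm3, Cmtm4 and Cmtm6 share no base with another gene of the table. Cmtm7 shares 168 bases, 4.9% of its exon bases, with the opposite-strand gene Gm9888, so a small part of its reads cannot be assigned.

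The sequence before the start of Cmtm8 is shown because it is the member whose level differs most between the genotypes. It covers the 250 bases upstream of the RefSeq start, chr9:114844153-114844402 on the minus strand of GRCm38, an earlier build than that of the table. Capitals mark CG dinucleotides.
Cmtm8: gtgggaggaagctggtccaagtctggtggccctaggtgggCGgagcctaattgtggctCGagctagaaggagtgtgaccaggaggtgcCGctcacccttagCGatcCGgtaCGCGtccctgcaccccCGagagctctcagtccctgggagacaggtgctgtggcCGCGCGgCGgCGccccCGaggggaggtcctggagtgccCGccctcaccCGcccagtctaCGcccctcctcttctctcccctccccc
These 250 bases hold 17 CG dinucleotides and are 68.8% G or C. Over the full window of 300 bases, which runs to 50 bases after the start, Cmtm8 has 24 CG dinucleotides, Cmtm4 38, Cmtm6 22, Cmtm7 15 and Cmtm3 12, against a median of 7 over all promoters. The core sequence bound by RBPJ, the DNA-binding partner of Notch, was searched as TGGGAA and, on the other strand, as TTCCCA. It was found in none of the 5 windows of the members, and in 25.6% of 32851 mouse promoter windows of the same length. This says only that these letters are not in those windows.

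Total counts ran from 15522100 to 27842496 per library. The 8 endothelial markers, among them Cdh5, Pecam1 and Kdr, summed to between 13900 and 17200 CPM (read counts relative to the scaled library total) in every library, so the labelled cell type was borne out by its markers. Notch1 had 766, 909 and 811 CPM in WT, 679, 872 and 777 CPM in DNMAML, and 70.8, 29.5 and 176 CPM in Notch1f/f. Levels in bulk RNA cannot tell fewer cells of a type from less RNA per cell.

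Cmtm8 was low in WT and DNMAML and several times higher in each Notch1f/f library. It had 130, 78 and 154 counts in the WT libraries, which is 6.76, 5.00 and 7.85 CPM. In DNMAML it had 190, 208 and 219 counts, or 7.62, 10.4 and 8.00 CPM. In Notch1f/f it had 786, 676 and 751 counts, or 35.2, 29.9 and 42.3 CPM. The WT and DNMAML ranges overlap, and the lowest Notch1f/f library lies above every library of the other genotypes. The means were 6.54 ± 1.44 CPM in WT, 8.67 ± 1.5 CPM in DNMAML and 35.8 ± 6.22 CPM in Notch1f/f (SD, n = 3 each).

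The difference of Cmtm8 on the log2 scale was 2.45 (SE 0.24) for Notch1f/f against WT, a 5.47-fold higher level. It was 2.05 (SE 0.24) for Notch1f/f against DNMAML, a 4.13-fold higher level, and 0.40 (SE 0.24) for DNMAML against WT. These comparisons share libraries, so their values are set side by side and not counted as separate evidence. Among the Notch1f/f libraries, replicate 2 had the lowest Cmtm8 and the lowest Notch1, and replicate 3 the highest of both.

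**Figure D1:**
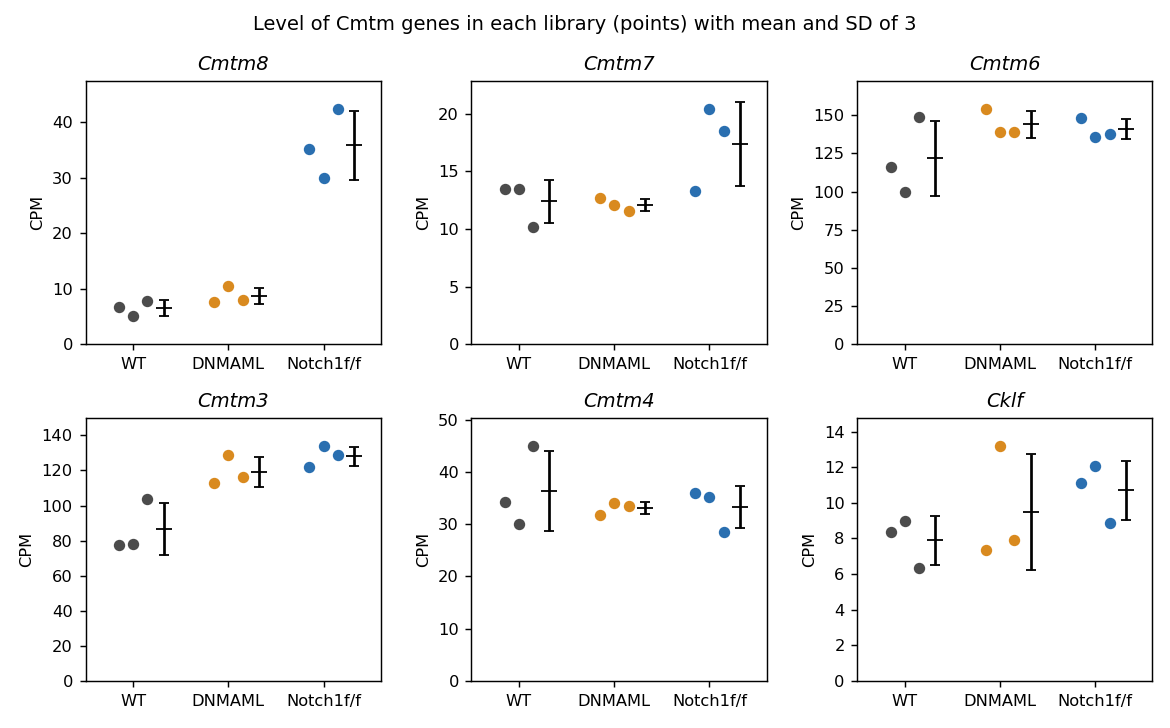
Level in CPM (vertical axis, from 0, with its own range in each panel) of Cmtm8, Cmtm7, Cmtm6, Cmtm3, Cmtm4 and the related Cklf by genotype. Points are libraries in the order of replicates 1 to 3, and the bar beside them is the mean with its SD (n = 3). Cmtm8 lies between 29.9 and 42.3 CPM in Notch1f/f and at or below 10.4 CPM in the other 6 libraries.

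Cmtm7, the neighbour of Cmtm8 on the same strand, had 13.5, 13.5 and 10.2 CPM in WT, 12.7, 12.1 and 11.6 CPM in DNMAML, and 13.3, 20.4 and 18.5 CPM in Notch1f/f. Replicates 2 and 3 of Notch1f/f are high, while replicate 1 lies within the range of WT. Its log2 difference was 0.49 (SE 0.23) for Notch1f/f against WT, 0.52 (SE 0.23) for Notch1f/f against DNMAML and -0.03 (SE 0.23) for DNMAML against WT. The Notch1f/f and DNMAML ranges of Cmtm7 do not overlap.

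Cmtm6, which lies beyond Cmtm7 and encodes the PD-L1 partner, was high in every library. It had 116, 100 and 149 CPM in WT, 154, 139 and 139 CPM in DNMAML, and 148, 136 and 138 CPM in Notch1f/f. The ranges of all 3 genotypes overlap, and the WT libraries spread most. Its log2 difference was 0.24 (SE 0.14) for DNMAML against WT, 0.21 (SE 0.14) for Notch1f/f against WT and -0.03 (SE 0.14) for Notch1f/f against DNMAML.

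Cmtm3, which acts on VE-cadherin in human cells, was lowest in WT. It had 77.6, 78.3 and 104 CPM in WT, 113, 129 and 116 CPM in DNMAML, and 122, 134 and 129 CPM in Notch1f/f. Every WT library lies below every library of the other genotypes, whose ranges overlap each other. The log2 difference of Cmtm3 was 0.46 (SE 0.13) for DNMAML against WT, 0.57 (SE 0.13) for Notch1f/f against WT and 0.11 (SE 0.13) between Notch1f/f and DNMAML. Neither difference from WT passed the threshold used over all genes. The difference between Notch1f/f and WT passed it with DESeq2 and without the filter on low counts, settings that called 1061 and 1415 genes. The edgeR fit used elsewhere called 163 genes in that comparison.

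Cmtm4, the tail-to-tail neighbour of Cmtm3, had 34.3, 30.0 and 45.0 CPM in WT, 31.8, 34.1 and 33.5 CPM in DNMAML, and 36.0, 35.3 and 28.6 CPM in Notch1f/f. The ranges overlap in all 3 comparisons, and the DNMAML libraries lie within those of WT. Its log2 differences were -0.14, -0.13 and 0.01 (SE 0.17 each) for DNMAML against WT, Notch1f/f against WT and Notch1f/f against DNMAML. The sign of these small differences depends on which library is left out.

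**Figure D2:**
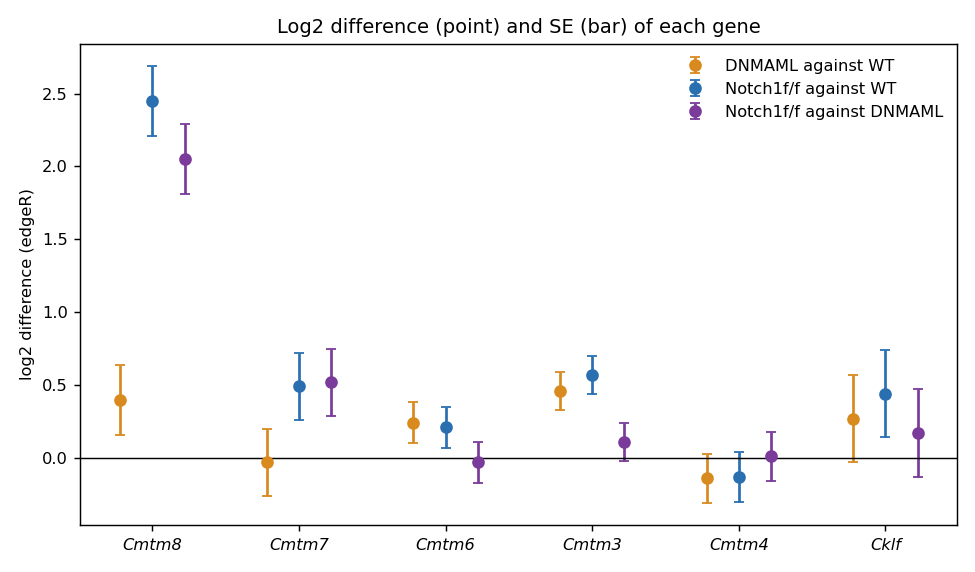
Difference on the log2 scale (vertical axis, from the edgeR fit to all 9 libraries) of Cmtm8, Cmtm7, Cmtm6, Cmtm3, Cmtm4 and Cklf in the 3 comparisons. Points are estimates and bars are 1 SE on each side. Cmtm8 stands at 2.45 and 2.05 in the comparisons with Notch1f/f, and no other gene shown exceeds 0.57.

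Over all 19486 genes tested with edgeR's quasi-likelihood test, at a Benjamini-Hochberg adjusted p below 0.05, 163 genes (0.836%) passed for Notch1f/f against WT. For Notch1f/f against DNMAML 4 genes (0.0205%) passed, and for DNMAML against WT 1 gene (0.00513%). Cmtm8 was the 1 member among the 163 and the 1 member among the 4, the others of which were mt-Nd3, Gm28438 and Rprl3. For DNMAML against WT 0 of the 5 members passed, which is near the share over all genes, and 1, Cmtm3, had an unadjusted p below 0.05. DESeq2 called 213 genes and 0 of the 5. With limma-voom 0 genes passed in all, so its 0 of the 5 says nothing about the members. With the replicate number as a block in the 6 WT and DNMAML libraries, 310 genes passed and again 0 of the 5. Since Cmtm8 was picked from these comparisons, nothing is read from its being among the genes that passed. The call of Cmtm8 for Notch1f/f against DNMAML was lost without DNMAML replicate 1 or replicate 3 and in a fit to the DNMAML and Notch1f/f libraries alone, where the log2 difference was 1.96, 2.00 and 2.04.

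The CPM ranges of the 2 genotypes did not overlap in 14.4% of all tested genes for DNMAML against WT, 17.8% for Notch1f/f against WT and 9.72% for Notch1f/f against DNMAML. Among the 5 members this held for Cmtm3, for Cmtm8 and Cmtm3, and for Cmtm8 and Cmtm7 in the same order of comparisons. The median log2 difference of the 5 members was 0.24, 0.49 and 0.11, against 0.01, 0.02 and 0.00 over all tested genes.

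Levels can be set against each other between genes as CPM per kilobase of exon. In WT the order was Cmtm6 (35.4 ± 7.15 CPM per kb), Cmtm3 (29.0 ± 4.99), Cmtm4 (4.71 ± 0.997), Cmtm7 (3.59 ± 0.543) and Cmtm8 (1.92 ± 0.423; SD, n = 3 each). The libraries of Cmtm6 and Cmtm3 overlapped there, as did those of Cmtm4 and Cmtm7, while those of Cmtm8 lay below all 4 relatives. DNMAML had the same order of means, from 41.9 ± 2.53 CPM per kb for Cmtm6 to 2.55 ± 0.441 for Cmtm8. In Notch1f/f Cmtm8 stood in the third place with 10.5 ± 1.83 CPM per kb. Its lowest library, at 8.80 CPM per kb, lay above the highest of Cmtm7, at 5.90, and of Cmtm4, at 4.65. Cmtm3 (43.0 ± 1.90) and Cmtm6 (40.9 ± 1.95) remained well above it and overlapped each other.

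As a share of the summed CPM per kb of the 5 genes, Cmtm8 made up 2.84%, 2.27% and 2.59% in WT and 2.42%, 3.23% and 2.64% in DNMAML. In Notch1f/f its share was 10%, 8.50% and 11.9%. The sum itself was 64.7 to 89.0 CPM per kb in WT, 89.2 to 94.6 in DNMAML and 103 to 105 in Notch1f/f. Cmtm6 and Cmtm3 together held most of the sum in each library. The mean share of Cmtm6 was 47.3% in WT, 45.4% in DNMAML and 39.4% in Notch1f/f, and that of Cmtm4 6.28%, 4.65% and 4.15%. That of Cmtm3 was 38.9%, 43.4% and 41.4%. Shares depend on the other genes in the sum, and the mean level of Cmtm6 itself was 35.4 CPM per kb in WT and 40.9 in Notch1f/f.

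**Figure D3:**
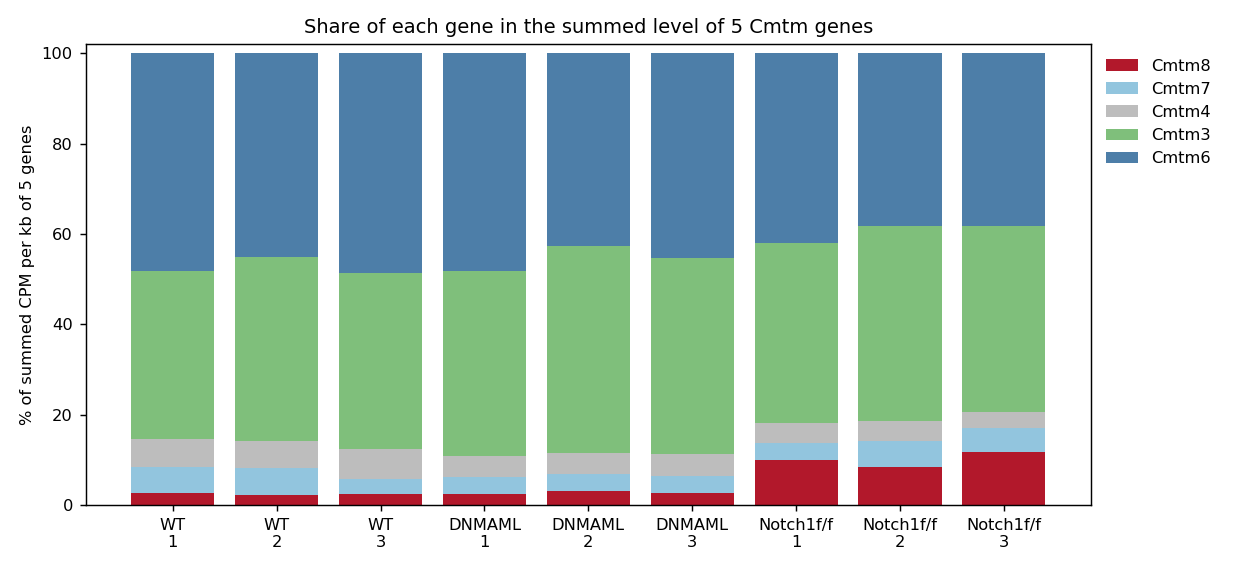
Share of each of the 5 Cmtm genes in their summed CPM per kb (vertical axis, percent) in the 9 libraries, shown as stacked bars. The lowest band, Cmtm8, is between 2.27% and 3.23% in WT and DNMAML and between 8.50% and 11.9% in Notch1f/f.

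The rest of the family was low or not detected. Cklf, the chemokine gene after which the family is named, lies in the chromosome 8 cluster at 104977493 to 104991570. It had 8.37, 8.97 and 6.32 CPM in WT, 7.34, 13.2 and 7.89 CPM in DNMAML, and 11.1, 12.1 and 8.85 CPM in Notch1f/f. Its ranges overlap in every comparison, with log2 differences of 0.27, 0.44 and 0.17 (SE 0.30 each) that did not pass. Cmtm2b, a gene of the same cluster, had between 0 and 40 counts per library and did not pass. Cmtm1 had 2 counts in a single WT library, and Cmtm2a, known from mouse testis, had 8 counts in a single Notch1f/f library. These genes share exons with each other and with Gm45711, so their counts are uncertain. Cmtm5, on chromosome 14, had 0 counts in all 9 libraries. This allows up to 0.193 CPM in the shallowest (3 counts, counting error only) if each count is independent. Where a fragment enters as a pair of counts, the limit is higher.

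No other gene around Cmtm8 on chromosome 9 passed the threshold. Within 1000 kb of its start 19 other genes were tested, and 0 of them passed in any of the 3 comparisons. That is near the share over all tested genes, 0.836% at most. Their log2 differences ran from -3.32 to 1.44 (median 0.20) for Notch1f/f against WT and from -3.02 to 1.54 (median 0.13) for Notch1f/f against DNMAML. Glb1, with its start 443 kb from that of Cmtm8, was named after its values had been seen. It had 0.95 and 1.04 (SE 0.22 each) in these comparisons and -0.09 (SE 0.21) for DNMAML against WT. Gpd1l, a relative of glycerol-3-phosphate dehydrogenase and the nearest named tested gene above Cmtm8, had 43.4, 38.8 and 45.3 CPM in the WT libraries. In Notch1f/f it had 53.0, 49.6 and 48.1 CPM, a log2 difference of 0.24 (SE 0.13). Osbpl10, which encodes an oxysterol-binding protein and lies next, had 2.50, 2.82 and 3.57 CPM in WT, 6.02, 6.54 and 3.29 CPM in DNMAML, and 6.31, 10.8 and 6.99 CPM in Notch1f/f. Its WT and Notch1f/f ranges do not overlap, and its log2 difference of 1.44 (SE 0.40) did not pass. On the other side, the dynein gene Dync1li1 and Cnot10, a subunit of the mRNA deadenylase, differed by 0.06 (SE 0.12) and -0.21 (SE 0.11) between Notch1f/f and WT. Trim71 had between 0 and 20 counts per library, and Rps27rt has near-identical relatives among ribosomal protein genes; neither passed.

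**Figure D4:**
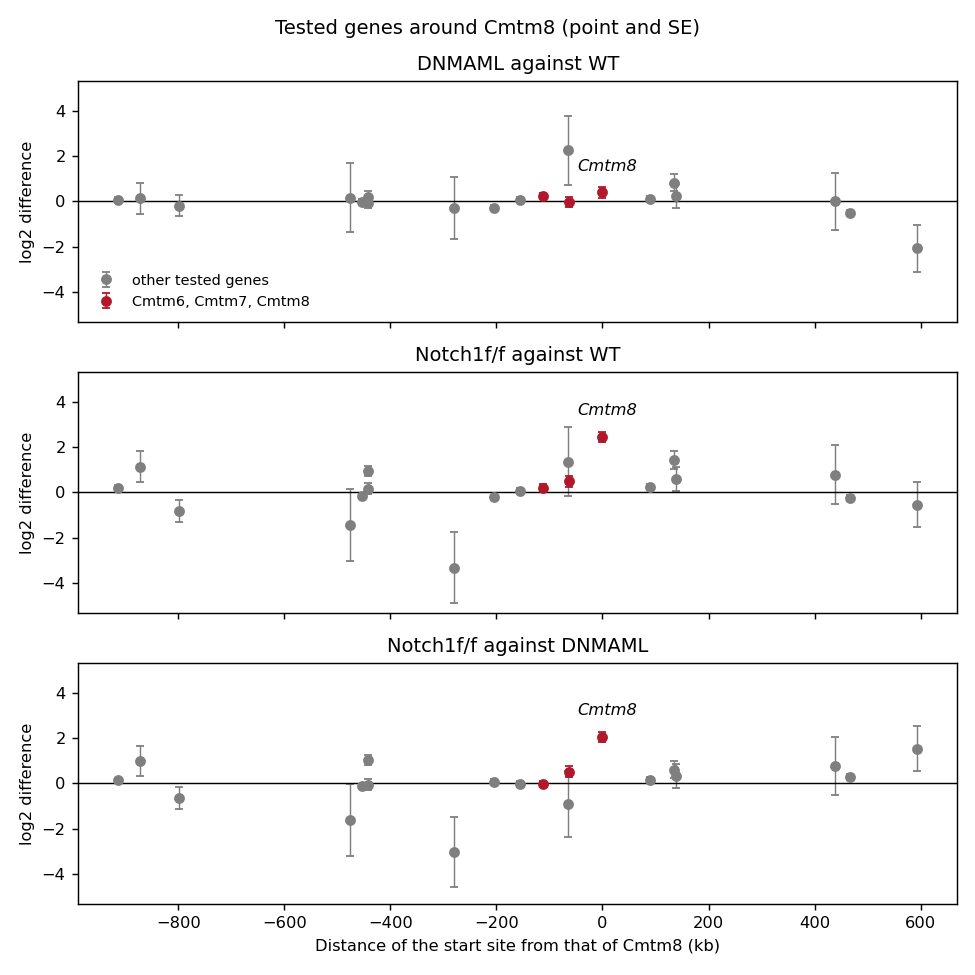
Difference on the log2 scale (vertical axis) of the tested genes against the distance of their start from that of Cmtm8 (horizontal axis, kb), 1 panel per comparison. Points are edgeR estimates with bars of 1 SE on each side, and Cmtm6, Cmtm7 and Cmtm8 are in red. Cmtm8, at 2.45 and 2.05 in the lower panels, is the 1 gene shown that passed there; genes with long bars had few counts.

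Around Cmtm3 and Cmtm4, the mitochondrial thymidine kinase gene Tk2 had a log2 difference of -0.32 (SE 0.19) for DNMAML against WT and -0.39 (SE 0.19) for Notch1f/f against WT. The dynein gene Dync1li2 differed by 0.20 and -0.04 (SE 0.12 each), and Nae1, which acts in NEDD8 conjugation, by -0.06 and -0.03 (SE 0.15 each). The meiotic gene Terb1 had at most 16 counts in a library. None of these neighbours passed the edgeR test in any comparison, which is near the share over all tested genes. The 2 further neighbours, Cklf and Cmtm2b, are given above.

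Genes whose proteins work with CMTM proteins in other systems did not pass either. Of 9 such partners, all tested, 0 passed in any comparison, which is near the share over all tested genes (0.836% at most). Cdh5 had 6470 ± 288 CPM in WT, 6020 ± 282 CPM in DNMAML and 5940 ± 566 CPM in Notch1f/f (SD, n = 3). The endosomal GTPase genes Rab5c and Rab5b differed between Notch1f/f and WT by 0.02 (SE 0.16) and -0.23 (SE 0.15) on the log2 scale. Of 11 genes of the EGF receptor family and its ligands 7 were tested and 0 passed, again near that share. Egfr, the receptor itself, had 12, 5.51 and 12.8 CPM in WT, 12.4, 2.50 and 11.4 CPM in DNMAML, and 2.6, 2.92 and 4.28 CPM in Notch1f/f. The WT and Notch1f/f ranges of Egfr do not overlap, as in 17.8% of all tested genes, with a log2 difference of -1.63 (SE 0.55) that did not pass. Erbb2, a receptor of the same family, and the ligand Hbegf differed by 0.01 (SE 0.17) and -0.32 (SE 0.34) between the same genotypes. The part of cells other than endothelium in the level of Egfr was not tested.

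Of 17 other genes with a MARVEL domain or a related fold 14 were tested and 0 passed, which is near the share over all tested genes. Marveld1 had 290 ± 21.0 CPM in WT, 186 ± 16.1 CPM in DNMAML and 178 ± 32.1 CPM in Notch1f/f. All WT libraries of Marveld1 lay above those of the other genotypes, with log2 differences of -0.64 (SE 0.15) and -0.71 (SE 0.15) that did not pass. Myadm and Sypl, a synaptophysin relative, differed between Notch1f/f and WT by 0.26 (SE 0.15) and -0.09 (SE 0.13).

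The summed levels of markers of other cells are given by genotype, and only the mural list held genes that passed among the mural, fibroblast, epithelial, leukocyte and aerocyte lists. Of 6 mural cell markers 4 fell past the threshold in Notch1f/f against WT (Pdgfrb, Cspg4, Higd1b and Notch3), where 0.836% of all tested genes passed. The summed level of the 6 was 334 to 510 CPM in WT, 205 to 402 CPM in DNMAML and 81.9 to 161 CPM in Notch1f/f. Fibroblast markers summed to 218 to 738, 168 to 768 and 94.3 to 276 CPM in the same order, and epithelial markers to 382 to 2950, 215 to 1510 and 150 to 1050 CPM, with 0 of 6 and 0 of 10 passing. Leukocyte markers, of which Lyz2 was the highest, summed to 123 to 833, 344 to 664 and 148 to 339 CPM, with 0 of 10 tested passing. Of these 10, 8 had a positive and 2 a negative log2 difference from WT in DNMAML (median 1.65). The counts were the same in Notch1f/f (median 0.51). Markers of aerocytes, the lung capillary cells specialised for gas exchange, summed to 5250 to 5630, 3920 to 6400 and 2830 to 4420 CPM, with 0 of 8 passing. In lists this short, counts of 0 are near the share over all genes. For Notch1f/f against WT, all 10 epithelial markers (median -0.89 on the log2 scale) and all 6 fibroblast markers (-1.24) had a negative difference. So did 7 of 8 aerocyte markers (-0.87), and 1 was positive. For DNMAML against WT, 8 of 10 epithelial, 3 of 6 fibroblast and 5 of 8 aerocyte markers were negative. No marker of these lists was at 0 in all libraries. The part of these cells in the levels of the Cmtm genes was not tested. Of 14 cell cycle genes 9 rose past the threshold for Notch1f/f against WT, where 0.836% of all genes passed, and 1, Aspm, for DNMAML against WT. All 14 had a positive log2 difference in both comparisons, which share the WT libraries, with a median of 2.96 for Notch1f/f and 3.18 for DNMAML. Mki67, the proliferation marker, had 5.51, 7.18 and 5.96 CPM in WT, 122, 146 and 103 CPM in DNMAML, and 29.1, 138 and 184 CPM in Notch1f/f. The part of proliferation in the level of Cmtm8 was not tested.

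The genes whose pattern was most like that of Cmtm8 were sought among 12722 genes with a proper gene symbol and a mean of at least 1 CPM. The measure was Pearson's r of log2 CPM over the 9 libraries. All genes share the genotype and depth of each library, so r mostly follows the gap between Notch1f/f and the other 6 libraries. The highest were Xaf1, an interferon-induced gene (r = 0.964), the semaphorin Sema3b (0.963), the mitochondrial malic enzyme Me2 (0.952), the innate immune receptor Naip2 (0.939) and Nxpe4 (0.936). Xaf1 had 66.3, 63.5 and 68.1 CPM in WT, 77.3, 83.1 and 70.9 CPM in DNMAML, and 160, 127 and 125 CPM in Notch1f/f. Sema3b had 18.3, 11.5 and 23.0 CPM, 18.5, 17.9 and 19.0 CPM, and 42.8, 46.0 and 50.1 CPM in the same order. In both genes every Notch1f/f library lies above the others, as for Cmtm8, with a smaller step.

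The lowest were Klk1b22 (r = -0.982), a kallikrein with near-identical relatives and 0 counts in every Notch1f/f library, Fam162b (-0.962), the membrane adaptor gene Pag1 (-0.959), the imprinted noncoding RNA Rian (-0.958) and Glt8d2 (-0.954). Pag1 had 62.9, 69.0 and 36.6 CPM in WT, 49.7, 25.3 and 40.9 CPM in DNMAML, and 11.4, 8.19 and 11.5 CPM in Notch1f/f. Of the relatives, Cmtm3 had r = 0.717 with Cmtm8, Cmtm7 0.692, Cmtm6 0.41 and Cmtm4 -0.121. By Spearman's rho, 1 of the 10 highest genes by Pearson's r was among the 10 highest. Which genes count as most like Cmtm8 therefore depends on the measure.

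**Figure D5:**
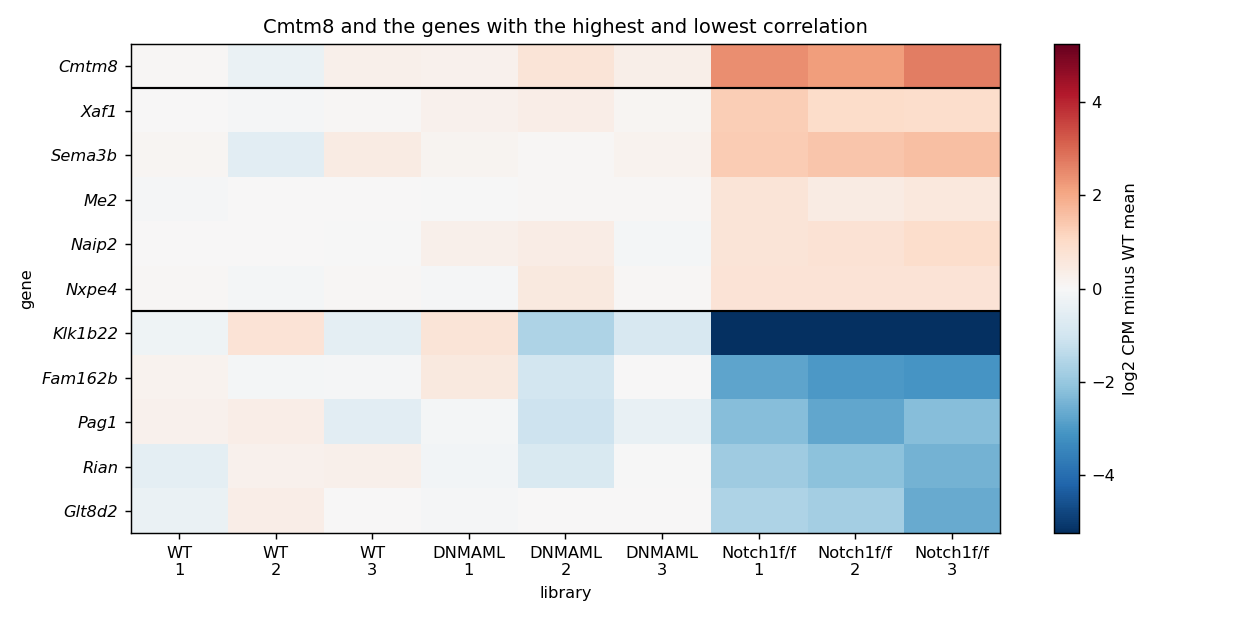
Level of Cmtm8 (top), the 5 genes with the highest and the 5 with the lowest Pearson's r with it (rows) in the 9 libraries (columns), as log2 CPM minus the WT mean (colour). The Notch1f/f columns are red for Cmtm8 and the 5 genes under it and blue for the lowest 5; the darkest blue, Klk1b22, stands for 0 counts and depends on the prior count of 2.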

How the data were processed

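The authors deposited 1 table of unnormalized read counts, whole numbers per gene for 9 libraries. Per the file headers, reads were counted with featureCounts 2.0.1 on Ensembl release 107 of GRCm39, with no option for strand, read pairs or multiply mapped reads. The submitters' processing notes name STAR 2.7 and mm10, a build that differs from the header. Per the labels' protocols, ribosomal RNA was depleted and a stranded kit was used, with all samples handled together. Of the genes with 1 to 199 counts in a library, 76.6% to 89% had an even count, so many fragments may enter as a pair of counts. Symbols came from a GRCm38 annotation, which named 52073 of 56748 identifiers.

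Genes low by filterByExpr were removed, leaving 19486, with all 5 members and 2 of 5 other family genes. edgeR 4.0.16 in R 4.3.3 fitted a robust quasi-likelihood model to all 9 libraries with TMM scaling and genotype alone, and p-values were Benjamini-Hochberg adjusted over all tested genes. Each SE is the absolute log2 difference divided by the square root of F. Alternatives were other size factors, no filter, DESeq2 1.42.0, limma-voom (limma 3.58.1), the 2 genotypes alone, the replicate block and leaving out each library.

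Deviations from the genotype means had r = 0.238, 0.344 and 0.179 across genes between same-numbered WT and DNMAML libraries. Differently numbered WT and DNMAML libraries had -0.27 to 0.0774. A blocked fit to these 6 was added after seeing the data. Same-numbered libraries had -0.13 to 0.212 with Notch1f/f, while Notch1f/f replicate 1 had 0.352 with WT replicate 2 and 0.306 with DNMAML replicate 2. The labels do not say what a number marks, so whether it pairs libraries is not known. The members and lists were chosen with earlier results of these data known. Named genes are the family, genes of the 3 lists of related or partner genes past the threshold or among the 3 highest, the 3 nearest named genes on each side, and the 5 most and 5 least correlated genes. For Notch1f/f against WT, where 0.836% of all tested genes passed, 1 of 7 general capillary markers (Aplnr, higher) and 1 of 8 arterial markers (Efnb2, lower) passed. Of the venous, lymphatic, and platelet and erythroid markers 0 of 6 passed in each list. Of 11 Notch targets 3 passed, all lower, among them Notch3, also a mural marker, and Efnb2, also an arterial marker. All 11 had a negative log2 difference from WT in Notch1f/f (median -0.59) and in DNMAML (median -0.48), comparisons that share the WT libraries. For DNMAML against WT 0 of the 11 passed, which is near the share over all genes.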

Additional observations from a re-analysis of the deposited data

How the results depend on the processing

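Cmtm8 kept its direction and its call for Notch1f/f against WT in all 15 settings tried, with log2 differences of 2.29 to 2.6. For Notch1f/f against DNMAML it kept its direction in all 15, at 1.90 to 2.18, and its call in 12; the call was lost in the 2 genotypes alone (2.04) and without DNMAML replicate 1 or 3 (1.96 and 2.00). Leave-one-out values there ran from 1.90 to 2.18. Cmtm8 passed in no setting for DNMAML against WT. The replicate block changed no call of a member. Cmtm3 passed for Notch1f/f against WT with DESeq2 (0.57) and without a filter (0.58), where 1061 and 1415 genes passed in all. Differences near 0 changed sign with 1 library left out: for DNMAML against WT, Cmtm4 ranged from -0.25 to 0.05, Cmtm7 from -0.14 to 0.04 and Cklf from -0.04 to 0.42. Cmtm4 also ranged from -0.25 to 0.05 for Notch1f/f against WT. For Notch1f/f against DNMAML, Cmtm4 ranged from -0.06 to 0.10, Cmtm6 from -0.08 to 0.02 and Cmtm2b from -0.13 to 0.50.

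The number of genes past the threshold depended strongly on the setting, and the cause was not tested. For DNMAML against WT it was 1, and 460 without a filter, 213 with DESeq2, 78 in the 2 genotypes alone, 4 with the replicate block in all 9 libraries, 310 with the replicate block in the 6, 0 to 94 with a library left out and 0 with limma-voom (1058 at an unadjusted p below 0.05). For Notch1f/f against WT it was 163, and 1415 without a filter, 1061 with DESeq2, 69 with limma-voom, 279 with the replicate block, and 13 to 530 with a library left out. For Notch1f/f against DNMAML it was 4, and 696 without a filter, 174 with DESeq2, 1 in the 2 genotypes alone, and 2 to 31 with a library left out. A count of 0 with a library left out had 870 to 1110 genes at an unadjusted p below 0.05.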

Other observations

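Mal, which encodes a MARVEL protein of apical and myelin membranes, was named after its values had been seen. It had 4.00, 0.897 and 7.03 CPM in WT, 3.21, 10.4 and 3.29 CPM in DNMAML, and 39.6, 30.8 and 13.8 CPM in Notch1f/f. Every Notch1f/f library of Mal lies above every other library, and its log2 difference from WT of 2.81 (SE 0.77) did not pass the edgeR quasi-likelihood test over all genes.

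Cd274, which encodes PD-L1 and was also named after its values had been seen, had 33.5, 21.1 and 18.8 CPM in WT, 59.7, 14.7 and 22.7 CPM in DNMAML, and 17.5, 11.2 and 18.4 CPM in Notch1f/f. Its difference between Notch1f/f and WT was -0.64 (SE 0.48) on the log2 scale and did not pass, beside 0.21 (SE 0.14) for Cmtm6.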
